A study of Mus musculus with 6 samples.

Results

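The 32 genes described here encode the enzymes of cholesterol synthesis, the proteins that regulate it and the enzymes that make, desaturate and elongate fatty acids. They were chosen by name, with earlier results of these data known. A gene was measured where the array's annotation gave it a probe set with that single symbol, and the brightest such probe set stood for it. By this rule 30 of the 32 were measured, among 19938 genes in all. Acat2, which joins acetyl-CoA units, had no such probe set in the annotation used, and the probe set of Acsl3, which activates fatty acids, was shared with Utp14b, so neither was analysed here.

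Total RNA came from bulk cultures of mouse induced pluripotent stem cells (iPSCs, fibroblasts reprogrammed to pluripotency), and each of 6 Affymetrix arrays held a culture called a biological replicate. The 3 primed cultures were kept on feeder cells or matrigel in medium conditioned by mouse embryonic fibroblasts, with 8 ng/ml basic FGF. The 3 naive cultures were kept in DMEM with 15% fetal bovine serum and 1000 U/ml of the cytokine LIF, which sustains naive pluripotency. No treatment and no transgene is named for either group, nor the way the cells were reprogrammed, nor whether the replicates were separate lines, so the p-values may measure technical spread. The titles give adult dermal fibroblasts as the origin of the primed cells and embryonic fibroblasts as that of the naive cells, while the source field names embryonic fibroblasts on every array. Culture state and medium cannot be told apart in this design. If the titles hold, origin cannot be told apart from them. In bulk RNA, fewer cells of a type and less RNA per cell cannot be told apart either. All values are log2 values after RMA (robust multi-array average), and all differences are primed minus naive, so a positive difference is a higher level in primed cells. Levels of different genes come from different probes and are not set against each other.

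Cells build cholesterol from acetyl-CoA through mevalonate, farnesyl diphosphate and squalene, and finish it by trimming and reducing the sterol ring. The transcription factor SREBP-2, encoded by Srebf2, drives these genes when sterols in the endoplasmic reticulum run low; Scap escorts it out of that membrane and Insig1 holds Scap back. SREBP-1, encoded by Srebf1, acts more on fatty acid genes, whose pathway runs from citrate through acetyl-CoA and malonyl-CoA to palmitate and on to longer and less saturated chains.

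Among sterol synthesis genes, more were higher than lower in primed cells. Of 16 measured, 8 were higher in primed cells, 2 were lower and 6 did not pass an adjusted p of 0.05 in limma. Over all genes, 21.8% were higher and 22.7% lower by the same test, 44.5% in either direction. The median difference of the 16 genes was 0.13, against -0.0015 over all genes; it was 0.08 for the 6 mevalonate genes and 0.23 for the 10 from squalene on, and these lists were not tested against each other. The median of the 16 was 0.20 after quantile normalization and 0.06 with arrays centred over genes, which set the median of all genes at -0.07. Of 9 measured fatty acid genes, 5 were higher in primed cells, 1 was lower and 3 did not pass, with a median of 0.27. Of 5 genes for regulators and transport, 2 were higher in primed cells, 0 were lower and 3 did not pass. At 2-fold or more, only Fads1 and Insig1 of the 30 passed, both higher in primed cells, where 1.71% of all genes were higher and 1.84% lower by that rule. The groups did not overlap for 22 of the 30 genes, with 18 higher and 4 lower in primed cells, against 25.9% and 27% of all genes.

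**Figure D1:**
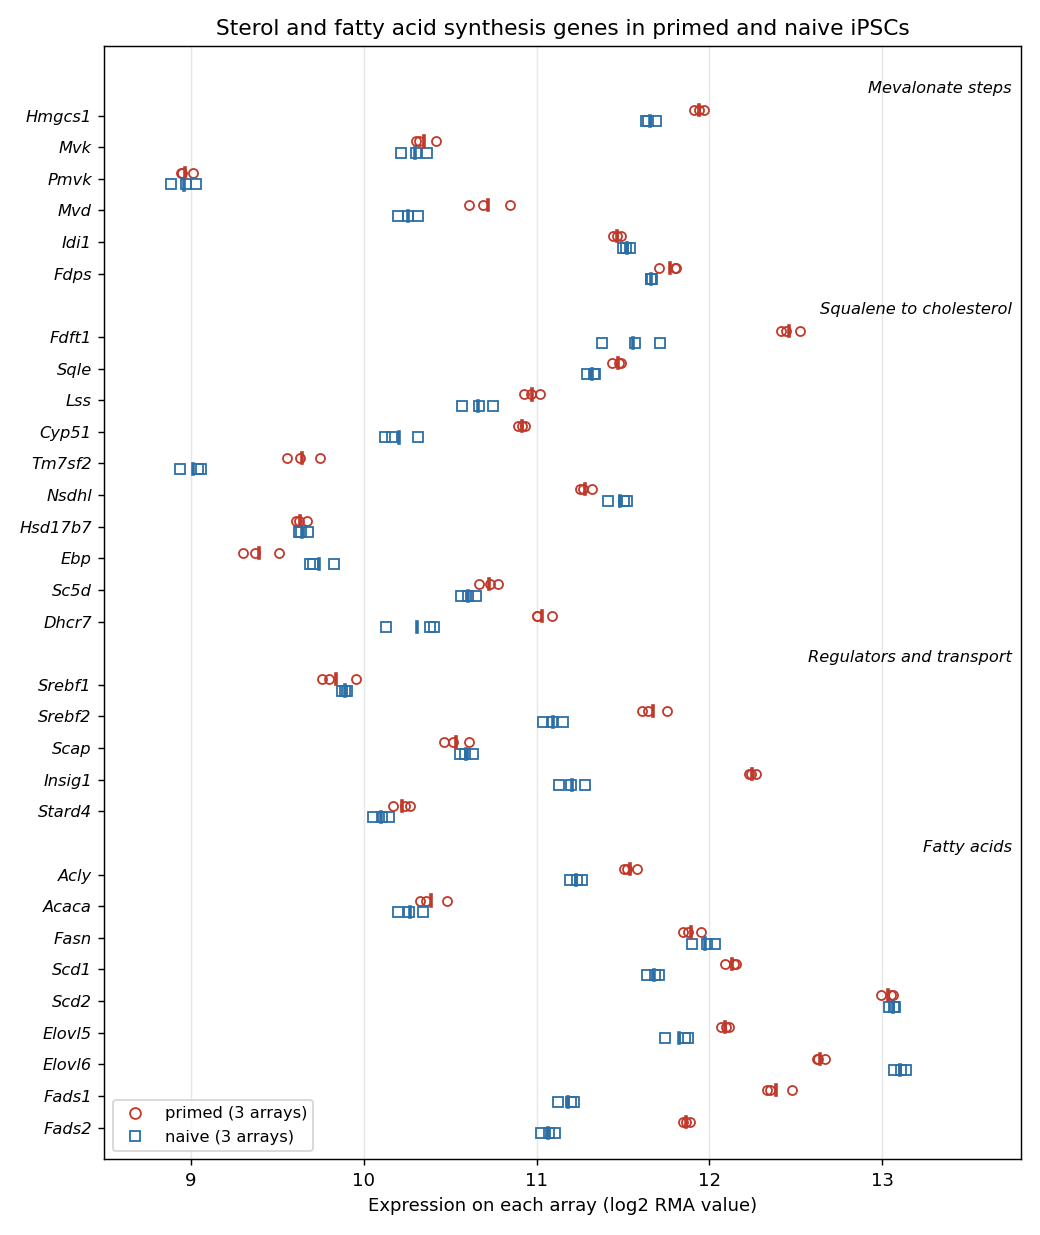
Log2 RMA value of each gene on each array, with primed arrays (circles) above naive arrays (squares) in each row; the upright bars are group means (n = 3 arrays each), and positions compare within a row only. The primed arrays of Insig1, Fads1, Fads2 and Fdft1 lie well to the right of the naive arrays, and those of Elovl6 to the left.

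The promoters of 6 members are shown because they span the range of differences: Hmgcs1, Cyp51, Srebf2, Insig1 and Fads2 were higher in primed cells and Elovl6 was lower. Each runs 5′ to 3′ on the gene's own strand, from 250 bases before to 50 after the start, as given by RefSeq for assembly GRCm38.p6. Capitals mark the SRE-like motif TCACNCCAC, a form of the site that SREBPs bind, and the NF-Y box CCAAT, the site of a cofactor of SREBPs, on either strand.
Hmgcs1, chr13:119690101-119690400, plus strand: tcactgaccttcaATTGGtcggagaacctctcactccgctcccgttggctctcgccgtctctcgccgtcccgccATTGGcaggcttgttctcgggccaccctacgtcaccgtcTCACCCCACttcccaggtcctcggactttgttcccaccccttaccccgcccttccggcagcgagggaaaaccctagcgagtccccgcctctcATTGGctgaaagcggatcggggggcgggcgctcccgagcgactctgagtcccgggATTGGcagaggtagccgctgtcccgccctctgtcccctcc
Cyp51, chr5:4104648-4104947, minus strand: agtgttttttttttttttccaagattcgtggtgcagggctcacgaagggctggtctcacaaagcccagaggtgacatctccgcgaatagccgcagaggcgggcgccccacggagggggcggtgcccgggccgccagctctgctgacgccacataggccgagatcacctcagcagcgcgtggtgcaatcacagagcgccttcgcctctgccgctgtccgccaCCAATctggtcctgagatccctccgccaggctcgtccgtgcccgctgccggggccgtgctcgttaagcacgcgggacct
Srebf2, chr15:82147019-82147318, plus strand: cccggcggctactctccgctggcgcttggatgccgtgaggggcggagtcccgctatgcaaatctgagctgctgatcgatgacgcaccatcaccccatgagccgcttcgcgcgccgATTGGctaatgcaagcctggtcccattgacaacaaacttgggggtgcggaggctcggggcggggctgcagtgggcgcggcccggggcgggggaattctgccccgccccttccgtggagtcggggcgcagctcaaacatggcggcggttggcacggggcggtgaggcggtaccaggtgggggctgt
Insig1, chr5:28071162-28071461, plus strand: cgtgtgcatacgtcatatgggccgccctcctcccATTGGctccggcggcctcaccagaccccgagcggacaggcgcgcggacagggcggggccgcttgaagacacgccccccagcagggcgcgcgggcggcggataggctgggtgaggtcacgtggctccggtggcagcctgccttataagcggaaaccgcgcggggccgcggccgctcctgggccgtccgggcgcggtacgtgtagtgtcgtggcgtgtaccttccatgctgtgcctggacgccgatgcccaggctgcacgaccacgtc
Fads2, chr19:10101454-10101753, minus strand: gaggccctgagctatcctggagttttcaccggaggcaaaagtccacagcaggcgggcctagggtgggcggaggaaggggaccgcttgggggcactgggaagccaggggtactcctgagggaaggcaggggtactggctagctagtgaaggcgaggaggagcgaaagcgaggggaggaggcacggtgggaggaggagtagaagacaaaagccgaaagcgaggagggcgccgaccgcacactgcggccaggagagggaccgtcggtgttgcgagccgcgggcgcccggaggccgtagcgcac
Elovl6, chr3:129532136-129532435, plus strand: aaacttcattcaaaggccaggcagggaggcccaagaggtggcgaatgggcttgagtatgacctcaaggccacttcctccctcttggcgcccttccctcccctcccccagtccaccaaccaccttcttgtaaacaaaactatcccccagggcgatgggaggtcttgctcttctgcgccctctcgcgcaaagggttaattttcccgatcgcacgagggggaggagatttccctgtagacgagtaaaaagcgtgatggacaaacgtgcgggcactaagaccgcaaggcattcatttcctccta
A promoter was listed for 25 of the 32 genes, or 23 of the 30 measured; none is shown for Fdps, Fdft1, Sqle, Stard4, Scd1, Scd2 and Fads1.

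The NF-Y box occurred in at least 1 listed promoter of all 13 sterol synthesis genes that had one, against 41.7% of 15614 measured genes with a listed promoter. It occurred in 3 of 6 fatty acid promoters, those of Acly, Fasn and Elovl5, and was not found in the Fads2 and Elovl6 windows printed above. By call, 10 of 11 members higher in primed cells held it, as did 2 of 3 lower members and 7 of 9 that did not pass. The SRE-like motif was found for 1 of the 23 measured members with a listed promoter. This was Hmgcs1, where the motif begins at base -137, counted from the start. Of measured genes with a listed promoter, 1.40% held it. Only this exact string was searched, so other forms of the site that SREBPs bind would be missed. The GC box GGGCGG was in 18 of the 23, against 52.9% of measured genes, and the E-box CACGTG in 6, against 9.5%. Both strands were searched, and Pmvk, Dhcr7, Srebf1 and Scap had more than 1 listed promoter, any of which counted. The only overlap between matches was between a pair of NF-Y boxes of Fasn on opposite strands. A match is a description of letters in these windows, and its part in the differences was not tested.

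Of the 6 mevalonate genes, which turn acetyl-CoA into the isoprenoid building blocks, 2 were higher in primed cells, 0 were lower and 4 did not pass. Over all genes, 21.8% were higher and 22.7% lower. Mvd, which makes isopentenyl diphosphate by decarboxylation, measured 10.85, 10.69 and 10.61 on the primed arrays and 10.20, 10.25 and 10.31 on the naive arrays. Every primed array lay above every naive array, and the groups were 0.46 apart on the log2 scale (SE 0.07, adjusted p = 0.00015 in limma). Hmgcs1, the HMG-CoA synthase whose promoter holds the SRE-like motif, measured 11.94, 11.97 and 11.91 on the primed arrays, against 11.63, 11.64 and 11.69 on the naive arrays. The groups were again apart, by 0.28 (SE 0.05, adjusted p = 0.00065), a 1.22-fold higher level in primed cells.

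The other 4 mevalonate genes did not pass in limma. The kinase genes Mvk and Pmvk overlapped between the groups, with differences of 0.05 (95% interval -0.08 to 0.18) and 0.01 (-0.12 to 0.13). Idi1, the isomerase, averaged 11.47 ± 0.02 on primed and 11.52 ± 0.02 on naive arrays (SD, n = 3 each). Its other probe set gave a difference of -0.04, beside -0.06 for the brighter one, and neither passed. Fdps, which makes farnesyl diphosphate, averaged 11.77 ± 0.06 on primed and 11.66 ± 0.01 on naive arrays (SD, n = 3 each). The Fdps groups did not overlap, yet the difference of 0.11 had an adjusted p of 0.12, and it passed after quantile normalization (0.18, adjusted p = 0.0077) and with an intensity trend (adjusted p = 0.042).

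From squalene on, 6 of 10 genes were higher in primed cells, 2 were lower and 2 did not pass. The shares over all genes were 21.8% higher and 22.7% lower. Fdft1, the squalene synthase that commits farnesyl diphosphate to sterols, measured 12.41, 12.53 and 12.45 on the primed arrays and 11.71, 11.38 and 11.57 on the naive arrays. The primed arrays stood together while the naive arrays spread more than for any other member (SD 0.17). The difference was 0.91 (SE 0.08, limma adjusted p = 2.4e-06), or 1.87-fold, and the second probe set gave 0.75 (adjusted p = 2.8e-06). Fdft1 lies on chromosome 14, where 230 of 698 measured genes were higher in primed cells and 108 lower. Nearest genes, here and below, are the 10 measured genes on each side in order along the chromosome. Of these 20 for Fdft1, 6 were higher, 1 was lower and 13 did not pass, with a median of 0.10.

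Cyp51, the lanosterol demethylase, measured 10.92, 10.93 and 10.89 on the primed arrays, against 10.17, 10.12 and 10.32 on the naive arrays. Its difference of 0.71 (SE 0.06, adjusted p = 2e-06) stood among 20 nearest measured genes with a median of -0.14, of which 10 were lower in primed cells and 2 higher. Tm7sf2, a reductase that acts on the product of Cyp51, measured 9.75, 9.55 and 9.63 on the primed arrays and 9.06, 8.94 and 9.04 on the naive arrays. Primed cells were higher by 0.63 (SE 0.06, adjusted p = 7.9e-06). Dhcr7, the reductase that yields cholesterol in the Kandutsch-Russell route, averaged 11.03 ± 0.05 on the primed arrays (SD, n = 3), with 10.41, 10.13 and 10.39 on the naive arrays. Naive replicate 2 was the lowest of its group, and the groups stood apart by 0.73 (SE 0.07, adjusted p = 1e-05).

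Lss, which closes the sterol ring to lanosterol, was higher in primed cells by a smaller margin, at 10.97 ± 0.05 on primed and 10.66 ± 0.09 on naive arrays (SD, n = 3 each). Its difference was 0.31 (limma adjusted p = 0.0012). Sqle, the epoxidase that limits the rate of the squalene branch, measured 11.49, 11.44 and 11.48 on the primed arrays and 11.29, 11.34 and 11.33 on the naive arrays. The arrays did not overlap, but the difference was only 0.15 (SE 0.05, adjusted p = 0.031). The call ended when any array other than primed replicate 2 was left out (adjusted p of 0.052 to 0.091) and when arrays were centred on their median over genes (0.08, adjusted p = 0.21).

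Both sterol genes that were lower in primed cells lie on the X chromosome. Ebp, the sterol isomerase, measured 9.51, 9.30 and 9.37 on the primed arrays, against 9.83, 9.71 and 9.69 on the naive arrays. Every primed array was below every naive array, with a difference of -0.35 (SE 0.07, limma adjusted p = 0.0011). Nsdhl, a dehydrogenase that helps strip methyl groups from the ring, averaged 11.28 ± 0.04 on primed and 11.48 ± 0.06 on naive arrays (SD, n = 3 each). Its difference of -0.20 (adjusted p = 0.010) no longer passed after quantile normalization (-0.13, adjusted p = 0.086). The 20 measured genes nearest to Ebp had a median of 0.04 and those nearest to Nsdhl of 0.01. Over the whole X chromosome, 195 of 739 genes were lower and 129 higher in primed cells, against 22.7% and 21.8% of all genes.

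The remaining pair of ring-processing genes did not pass. Hsd17b7, which works with Nsdhl, had a difference of -0.01 (95% interval -0.12 to 0.10), with overlapping groups. Sc5d, the desaturase before Dhcr7, averaged 10.72 ± 0.05 on primed and 10.60 ± 0.04 on naive arrays (SD, n = 3 each), a difference of 0.12 with a limma adjusted p of 0.094. The Sc5d groups did not overlap, and the gene passed after quantile normalization (0.16, adjusted p = 0.027).

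**Figure D2:**
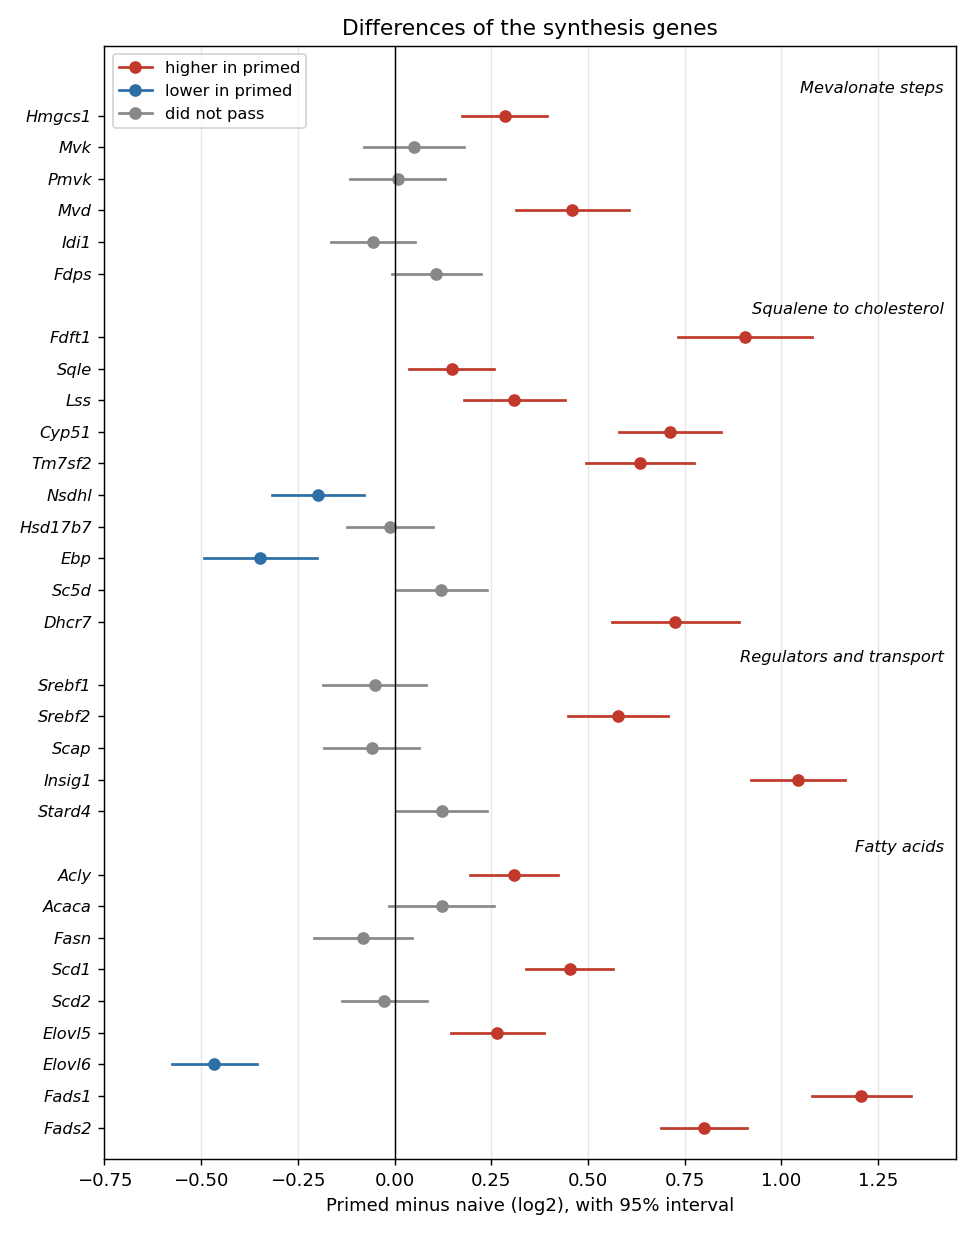
Primed minus naive difference of each gene (log2, points) with its 95% interval from limma (lines, 3 arrays per group); genes higher in primed cells are red, lower ones blue and those that did not pass grey. The points run from -0.47 for Elovl6 to 1.21 for Fads1, and the intervals of Mvk, Pmvk, Idi1 and Fdps among the mevalonate genes hold 0.

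Among the regulators, Insig1 and Srebf2 were higher in primed cells, while Scap, Srebf1 and Stard4 did not pass. Insig1, itself a target of SREBPs, measured 12.24, 12.23 and 12.27 on the primed arrays, against 11.20, 11.13 and 11.28 on the naive arrays. The gap between groups was many times the spread within them, with a difference of 1.04 (SE 0.055, limma adjusted p = 4.9e-08), or 2.06-fold. Insig1 ranked 631 of 19938 genes by the size of its difference. Srebf2 measured 11.76, 11.61 and 11.65 on the primed arrays and 11.04, 11.15 and 11.09 on the naive arrays. The groups stood apart by 0.58 (SE 0.06, adjusted p = 9.1e-06), a 1.49-fold higher level in primed cells.

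Srebf1 overlapped between the groups at 9.84 ± 0.11 on primed and 9.89 ± 0.01 on naive arrays (SD, n = 3 each), a difference of -0.05 with a 95% interval of -0.19 to 0.08. Its single probe set does not tell its transcripts apart. Scap also overlapped, with a difference of -0.06 (-0.18 to 0.06). Stard4, a carrier that moves cholesterol between membranes, did not overlap, at 10.22 ± 0.05 on primed and 10.10 ± 0.04 on naive arrays (SD, n = 3 each). Its difference of 0.12 missed the threshold (limma adjusted p = 0.088) and passed after quantile normalization (0.14, adjusted p = 0.039) and among the genes brightest by a 40th percentile filter (adjusted p = 0.047), but not with the receptor-based filter (adjusted p = 0.056).

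In the fatty acid arm, the desaturases of polyunsaturated chains had the largest differences. Fads1, the desaturase that completes arachidonic acid, measured 12.48, 12.35 and 12.33 on the primed arrays, against 11.20, 11.13 and 11.22 on the naive arrays. Every primed array exceeded every naive array by more than 1 log2 unit. The difference of 1.21 (SE 0.06, limma adjusted p = 2.4e-08), or 2.31-fold, was the largest of the 30 genes and ranked 446 of 19938. Fads2, which acts at the start of the same route, measured 11.89, 11.85 and 11.86 on the primed arrays and 11.03, 11.07 and 11.10 on the naive arrays. Its primed arrays were likewise all higher, by 0.80 (SE 0.05, adjusted p = 2.05e-07).

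Fads1 and Fads2 are neighbours on chromosome 19. The 20 measured genes nearest to Fads1 had a median of -0.06. Elovl5, which elongates the chains that Fads2 has desaturated, was higher in primed cells at 12.09 ± 0.03, against 11.83 ± 0.07 on naive arrays (SD, n = 3 each), by 0.27 (limma adjusted p = 0.0018).

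Elovl6, which lengthens palmitate, was the one fatty acid gene lower in primed cells. It measured 12.67, 12.63 and 12.62 on the primed arrays, against 13.11, 13.14 and 13.07 on the naive arrays. The groups were well apart, with a difference of -0.47 (SE 0.05, limma adjusted p = 1.45e-05), or 1.38-fold lower. Its neighbours had a median of -0.08, with 8 of 20 lower and 4 higher.

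Scd1 and Scd2 encode desaturases that make monounsaturated fatty acids and lie near each other on chromosome 19. Scd1 measured 12.14, 12.15 and 12.09 on the primed arrays and 11.71, 11.64 and 11.68 on the naive arrays. It was higher in primed cells by 0.45 (SE 0.05, 95% interval 0.34 to 0.56, limma adjusted p = 2.1e-05). Scd2 measured 13.06, 13.05 and 12.99 on the primed arrays and 13.04, 13.07 and 13.08 on the naive arrays. Its groups overlapped, with a difference of -0.03 (-0.14 to 0.08); the difference between the paralogues' responses was not tested, and how far their probes cross-react is not known from the files.

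Of the genes that feed and form the fatty acid synthase, Acly passed and Acaca and Fasn did not. Acly, which makes cytosolic acetyl-CoA from citrate and so supplies both pathways, measured 11.58, 11.51 and 11.53 on the primed arrays, against 11.26, 11.23 and 11.19 on the naive arrays. It was higher in primed cells by 0.31 (SE 0.05, limma adjusted p = 0.00043). Acaca, the carboxylase that makes malonyl-CoA, overlapped between groups (0.12, 95% interval -0.01 to 0.26), and its other probe set gave 0.03. Acaca passed after quantile normalization (0.15, adjusted p = 0.036). Fasn, the synthase itself, overlapped too, at 11.89 ± 0.06 on primed and 11.97 ± 0.07 on naive arrays (SD, n = 3 each). Its difference of -0.08 (-0.21 to 0.04) did not pass, and passed as lower in primed cells when arrays were centred on their median over genes (-0.15, adjusted p = 0.042).

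The rest of the lipid network was read from 8 lists with 83 genes, of which 71 were measured by the same rule and the others were not analysed here. Of the 71, 33 were higher in primed cells, 18 were lower and 20 did not pass, with a median of 0.14. Over all genes, 21.8% were higher and 22.7% lower, and the counts of each list below are to be read beside these shares. The lists were not tested against these shares, and were chosen with earlier results of these data known. Other sterol synthesis genes gave 3 higher and 1 lower of 4. Ggps1, which extends farnesyl to geranylgeranyl diphosphate, averaged 10.32 ± 0.05 on primed and 9.23 ± 0.02 on naive arrays (SD, n = 3 each), a difference of 1.10 (limma adjusted p = 2e-08). Msmo1, which oxidises the methyl groups that Nsdhl and Hsd17b7 then help remove, was higher by 0.52 (adjusted p = 6.6e-06), and Erg28, a scaffold of that complex, by 0.25 (adjusted p = 0.017). Lbr, a lamin-binding protein with the same reductase activity as Tm7sf2, was lower by 0.18 on the log2 scale (-0.18, adjusted p = 0.049). The Erg28 call ended without primed replicate 1 (adjusted p = 0.070) or naive replicate 2 (adjusted p = 0.065) and with arrays centred over genes (0.17, adjusted p = 0.061). The Lbr call ended without any array except naive replicate 1 (adjusted p of 0.058 to 0.19), after quantile normalization (-0.11, adjusted p = 0.18) and with arrays centred over all probe sets (-0.17, adjusted p = 0.070).

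Sterol sensing genes other than the members gave 1 higher, 2 lower and 1 not passing of 4. Insig2, the paralogue of Insig1, was at 10.11 ± 0.05 on primed and 10.32 ± 0.07 on naive arrays (SD, n = 3 each), a difference of -0.21 (limma adjusted p = 0.009) against 1.04 for Insig1. Faf2, which helps degrade Insig1 and other membrane proteins, differed by -0.21 (adjusted p = 0.0052). Mbtps1, the protease that first cuts SREBPs, differed by 0.16 (adjusted p = 0.046), and this call ended without primed replicate 1 or 2 or naive replicate 1 or 3 (adjusted p of 0.090 to 0.15), with array weights (0.14, adjusted p = 0.053) and with arrays centred over genes (0.09, adjusted p = 0.22).

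Genes of lipoprotein uptake and of cholesterol exit from lysosomes had the highest median of the 8 lists, 0.48, with 7 of 11 higher in primed cells, 2 lower and 2 not passing. Vldlr, a receptor for lipoproteins and reelin, measured 9.22, 9.27 and 9.26 on the primed arrays, against 7.41, 7.33 and 7.32 on the naive arrays. Naive levels lay little above the background cutoffs, and the difference was 1.90 (SE 0.05, limma adjusted p = 3.4e-10). Npc1 and Npc2, which hand cholesterol out of the lysosome, were higher by 0.70 (adjusted p = 1.7e-06) and 0.68 (adjusted p = 1.4e-06). Lrp1, another lipoprotein receptor, was higher by 0.68 (adjusted p = 0.0001).

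Efflux and oxysterol genes gave 1 higher, 2 lower and 4 not passing of 7, with a median of -0.02. Abca1, the transporter that exports cholesterol, averaged 7.14 ± 0.07 on primed and 8.03 ± 0.10 on naive arrays (SD, n = 3 each), a difference of -0.89 (limma adjusted p = 6.7e-07). Its primed values lay just above the background cutoffs, where RMA compresses differences. Ch25h and Cyp27a1, both among the 4 that did not pass, lay in background in both groups. Its relative Abcg1 differed by -0.16 (adjusted p = 0.038), a call that ended without any array except primed replicate 3 (adjusted p of 0.055 to 0.16) and with arrays centred over all probe sets (-0.14, adjusted p = 0.084). Apoe, a lipoprotein component, was higher in primed cells by 0.44 (adjusted p = 5.4e-05).

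Supply of acetyl-CoA and NADPH gave 2 higher, 1 lower and 2 not passing of 5. Acss2, which makes acetyl-CoA from acetate, measured 9.65, 9.53 and 9.55 on the primed arrays, against 8.46, 8.81 and 8.54 on the naive arrays. It was higher in primed cells on every array, by 0.98 (SE 0.08, limma adjusted p = 2e-06). Idh1, a source of NADPH, was higher by 0.66 (adjusted p = 1.5e-06), while Pgd, an NADPH-yielding enzyme of the pentose phosphate pathway, differed by -0.62 (adjusted p = 2.5e-05).

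Other fatty acid synthesis genes split into 9 higher, 5 lower and 7 not passing of 21. Hacd4, counted as lower, and Elovl3, which did not pass, lay in background in both groups. Scd4, another desaturase of the Scd cluster, measured 8.81, 7.05 and 8.38 on the primed arrays, against 5.94, 6.04 and 6.01 on the naive arrays, all of them in background. Primed replicate 2 was itself only just above background, so the group was far from uniform. Against the background cutoff Scd4 was at least 2.11-fold higher in primed cells, a bound that was not itself tested. The measured values differed by 2.08 (limma adjusted p = 0.00026). Elovl4, an elongase of very long chains, was higher by 1.09 (adjusted p = 4.6e-08) and Acsl6, an acyl-CoA synthetase, by 0.73 (adjusted p = 3.8e-06). Acsl5, another such synthetase, went the other way, with a difference of -1.15 (adjusted p = 8.9e-08).

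Fatty acid oxidation genes gave 6 higher, 2 lower and 2 not passing of 10, with a median of 0.28. Cpt1a, which admits fatty acids to mitochondria, measured 11.28, 11.11 and 11.17 on the primed arrays, against 9.58, 9.67 and 9.56 on the naive arrays. This 2.999-fold gap (difference 1.58, SE 0.06, limma adjusted p = 3.9e-09) was larger than that of any of the 30 synthesis genes. Acadl was higher by 0.56 (adjusted p = 3.2e-06) and Cpt2 by 0.55 (adjusted p = 1.1e-05), and Hadhb differed by -0.54 (adjusted p = 1.9e-05). Lipid storage genes gave 4 higher, 3 lower and 2 not passing of 9. The lipase gene Pnpla2 (0.68, adjusted p = 6.3e-06) and the phosphatase gene Lpin1 (0.50, adjusted p = 1e-05) were higher in primed cells. The droplet coat gene Plin2 (-0.60, adjusted p = 1.8e-05) and the triglyceride synthase gene Dgat2 (-0.46, adjusted p = 0.00016) were lower.

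**Figure D3:**
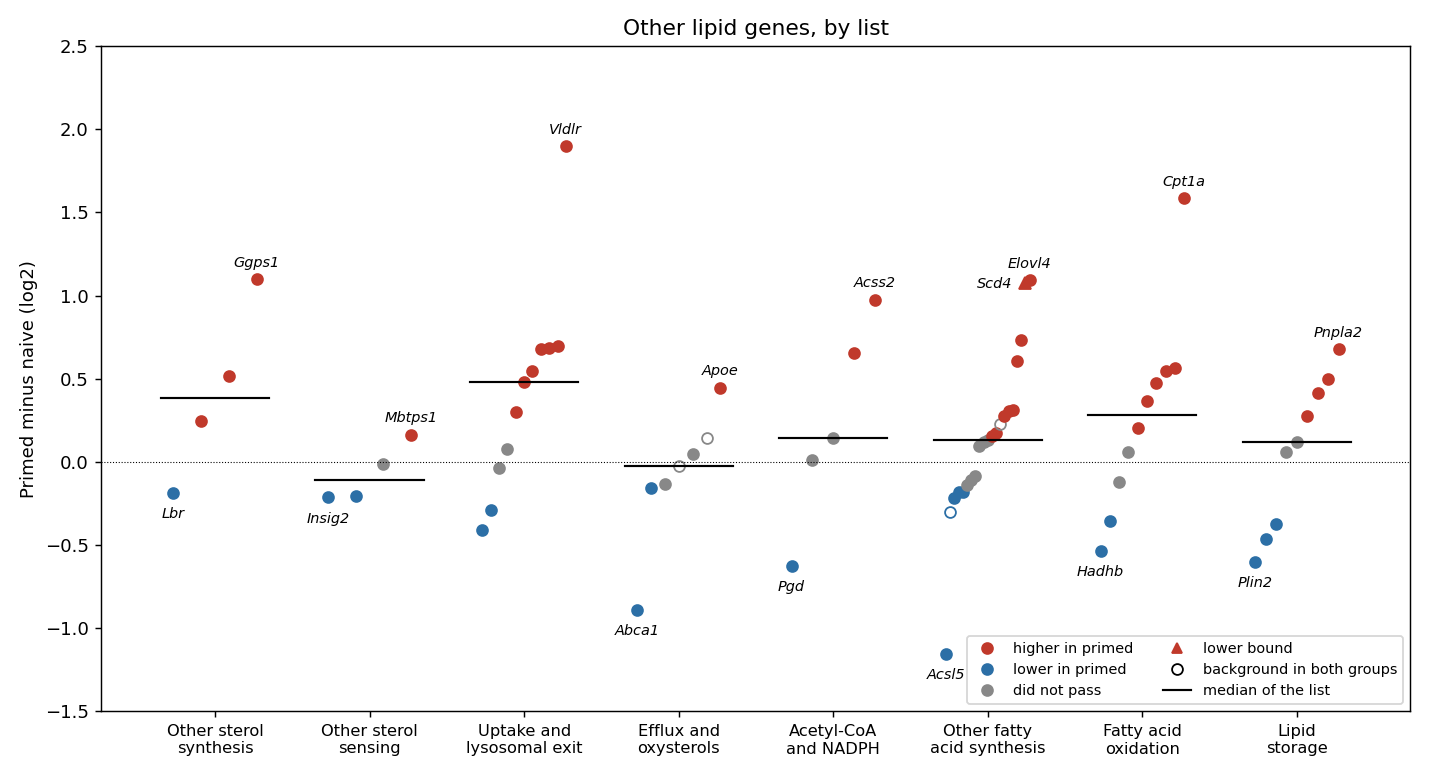
Primed minus naive difference (log2) of each of the 71 other lipid genes measured, by list; each point is a gene coloured by its call, the black line is the list's median, and named genes at a list's ends are labelled. Vldlr and Cpt1a stand at 1.90 and 1.58 and Acsl5 at -1.15; the triangle marks Scd4 at its lower bound of 1.08, and open points are genes in background in both groups.

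The 30 genes lay well above background. Brightness does not show that a probe set reads its gene alone, and this was not checked. Their lowest value on any array was 8.88, against background cutoffs between 6.96 and 7.02, so all 30 stayed in under either filter on dim genes. The spread within a group had a median SD of 0.05 over the 30 genes in both primed and naive arrays, and reached 0.12 in primed cells for Mvd and 0.17 in naive cells for Fdft1. Primed replicate 1 was the highest primed array for 21 of the 30, and it also had the highest median over all genes, 8.38 against 8.35 on the other primed arrays. The naive medians lay at 8.28 to 8.29. Centring arrays on these medians gave 3439 genes higher and 6325 lower in primed cells over all genes, in place of 4347 and 4529; the sterol genes gave 7 higher and 2 lower, the fatty acid genes 5 and 2, and the 71 other lipid genes 28 and 23.

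Markers of other cells moved unevenly beside these results. Pluripotency markers were well above background in both groups; 4 of 5 were lower in primed cells, with summed linear levels of 16458 to 17321 on primed and 24592 to 24684 on naive arrays. Of 9 fibroblast markers, 2 were higher, 3 lower and 4 did not pass, and Lum and Postn lay in background in both groups. Their summed linear level was 3022 to 3123 on primed and 2485 to 2520 on naive arrays, and without Dcn, left out after its values were seen, 1888 to 1981 on primed and 2337 to 2358 on naive arrays. The part of fibroblasts in the differences was not tested. Of 9 markers of visceral endoderm, which makes lipoproteins, 9 did not pass; Afp, Ttr, Apob and Sox17 lay in background, and the summed levels were 1470 to 1538 on primed and 1470 to 1529 on naive arrays. Of 7 fat cell markers, 1 was lower and 6 did not pass, with Adipoq, Fabp4 and Lep in background and sums of 929 to 992 on primed and 988 to 1069 on naive arrays.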

How the data were processed

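The deposited table holds log2 expression values of 35556 probe sets on 6 arrays, made by the authors with RMA in Partek 6.6, per the submitters' processing notes; the sources used here do not give the options or the genome build. RMA compresses differences of dim genes. Probe sets were named through the platform annotation: 21789 carried a single symbol, 1621 carried several, and 12146 stayed unnamed here. RefSeq (GRCm38.p6) held the gene ID of 21698 single-symbol probe sets. The brightest probe set per gene was kept. Primed arrays were tested against naive ones by limma 3.58.1 under R 4.3.3 (lmFit, eBayes, two-sided, no covariates), adjusted by Benjamini-Hochberg over 19938 genes; the number of arrays limits the precision. Background on each array was set at percentile 95 of 1194 genes for odorant and vomeronasal receptors. On simulated arrays with few changed genes, unlike these data, the fit recovered 24% of 50 planted changes of 0.25 log2 units. It recovered 86% at 0.5, 98% at 1 and 100% at 2, and called 3 unchanged genes.

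All members are named, and of each related list the 4 genes with the largest difference among those that passed. Hacd4, Elovl3, Ch25h, Cyp27a1 and Mgll were named for values in background, after these were seen. The members and lists were chosen with earlier results of these data known. Promoters were searched as exact matches in Python 3.11.15. Alternatives were other scalings, filters on dim genes, averaged probe sets, array weights, an intensity trend, a replicate block, a stricter threshold and each array left out; centring on the median over genes was chosen after seeing the data.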

Additional observations from a re-analysis of the deposited data

How the results depend on the processing

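Under the 16 alternatives tried, 0 of 942 values of the 59 named genes reversed a call. Of these values, 39 lost a call and 7 gained one, in 11 genes. A reversal needs a change of sign. The filters on dim genes, the intensity trend, the replicate block and the stricter threshold leave the difference itself unchanged. Averaging probe sets does so too for a gene with no other probe set. For those values a reversal was not possible, so the 0 says nothing about them. Of the 15 members higher in primed cells, 14 passed under each alternative (the exception was Sqle), and of the 3 lower members 2 did (the exception was Nsdhl). Sterol genes lower in primed cells numbered 1 after quantile normalization and 1 at an adjusted p under 0.01, in place of 2. Fatty acid genes lower in primed cells numbered 2 with arrays centred on their median over genes, in place of 1. The cause of these shifts was not tested. Without each array in turn, sterol genes gave 7 to 8 higher and 2 lower, fatty acid genes 5 higher and 1 lower, and the other lipid genes 30 to 33 higher and 15 to 16 lower. Over all genes the ranges were 3926 to 4169 higher and 4007 to 4455 lower.

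The labels give both groups replicate numbers, but same-numbered arrays did not deviate together (r of -0.11, 0.00 and -0.02 over genes), so the numbers were not taken as pairs. With the replicate block 4172 genes were higher and 4344 lower, and Sqle did not pass (0.15, limma adjusted p = 0.061); Lbr, Mbtps1 and Abcg1 also lost their calls. The members lay above background on every array. Among the other lipid genes counted as changed, Scd4, Hacd4 and Mgll did not. Mgll, a lipid storage gene counted as lower, fell below the cutoff on primed replicate 2 (6.91 against 7.02).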
